A study of Arabidopsis thaliana with 12 samples.

Results

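The genes described here encode receptors and co-receptors that sit in the plasma membrane of the plant cell and recognize molecules from outside it. They were chosen by name, through the AGI codes of FLS2, EFR, PEPR1, PEPR2, RLP23, SOBIR1, CERK1, LYK5, LYK4 and LORE, which gave 10 genes of the 28496 in the table. All 10 passed the minimum of 100 pooled reads over the 4 genotypes that 16660 genes met. RNA was sequenced from leaves of Arabidopsis thaliana in 12 samples, 3 from independent experiments for each of 4 genotypes, and a sample held leaves of more than 1 plant. Wild-type Col-0 was the control. ADR1-L2 D484V, called ADR1-L2 DV here, expresses an activation mimic of the helper NLR receptor ADR1-L2 from its native promoter in the adr1-l2-4 mutant. ADR1-L2 D484V 26.6 and ADR1-L2 D484V 30.4, called sadr1-26.6 and sadr1-30.4, carry the same transgene and mutant background plus a mutation in the TNL gene SADR1. Each suppressor was 1 line recovered from a mutagenesis screen, so the values of a suppressor are those of a single line. Plant age and treatment are not given in the labels, which name no infection or elicitor.

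Pattern recognition receptors bind conserved microbial molecules or peptides released by damaged plant tissue, and start calcium influx, an oxidative burst, kinase cascades and defense gene expression. Receptor kinases such as FLS2 carry their own intracellular kinase domain, whereas receptor-like proteins such as RLP23 lack one and work with the adaptor kinase SOBIR1. The LysM genes CERK1, LYK5 and LYK4 act in the perception of chitin, a polymer of fungal cell walls. The comparisons ask whether an activated helper NLR inside the cell goes along with altered transcript levels of receptors at its surface, and whether the level returns to that of Col-0 when SADR1 is mutated.

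The table gives 1 whole-number value per gene and genotype, which was treated as the number of reads pooled over the 3 samples. Pooled reads totalled between 20013826 and 21277026 per genotype. They were divided by a scaling factor per genotype, the median of ratios over 9998 well-measured genes, and the results are called scaled reads. A difference is the log2 ratio of scaled reads in 2 genotypes, followed by its 95% counting interval (exact Clopper-Pearson). Because no value per sample was analysed, there is no SD, no test and no p-value for any difference, and intervals cover counting error only. They leave out the variation between plants and the choice of scaling. They are too wide if the pooled value is a mean rather than a sum of samples, which the sources do not state. A gene was called higher or lower where the ratio reached 1.5-fold, a log2 difference of 0.58. In whole leaves, a change in the number of cells of a type cannot be told apart from a change in RNA per cell. The 3 mesophyll markers RBCS1A, LHCB1.3 and CA1 summed to between 626472 and 668376 scaled reads in Col-0 and the suppressors, and to 365728 in ADR1-L2 DV, where all 3 were lower. The 3 vascular markers summed to between 7815 and 8828 scaled reads outside ADR1-L2 DV and to 4162 in it, with all 3 lower there. The 3 root markers summed to at most 7.74 scaled reads in any genotype, and CASP1 and IRT1 were at 0 in all 4. The 3 epidermis markers summed to between 4625 and 6528 scaled reads with 5245 in ADR1-L2 DV, where PDF1 alone was called higher, with 16 pooled reads from Col-0 and 384 from ADR1-L2 DV. The 3 guard cell markers summed to between 560.3 and 673.0 scaled reads, and 0 of them were called in ADR1-L2 DV. The 2 markers of dividing cells summed to 70.9 scaled reads in Col-0 and to between 23.2 and 38.3 in the other genotypes. The 2 flower markers stayed at or under 32.0 scaled reads, with 0.86 in ADR1-L2 DV. The part of leaf composition in the receptor values was not tested. ADR1-L2 itself, which is both transgene and check of the line, had 1148 pooled reads from Col-0, 8543 from ADR1-L2 DV, 3254 from sadr1-26.6 and 1855 from sadr1-30.4. Its log2 ratio to Col-0 was 2.62, 1.54 and 0.68 in that order, so ADR1-L2 reads lay above the Col-0 level in both suppressors.

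In ADR1-L2 DV, 5 of the 10 receptor genes were higher than in Col-0 by 1.5-fold or more, namely SOBIR1, RLP23, LYK5, FLS2 and LORE, and 0 were lower. Over all genes compared, 13.8% were higher and 15.3% lower by that rule. Scaling by total reads instead gave 21.7% higher and 9.96% lower, and 6 receptor genes higher, with EFR added. The median log2 ratio was 0.57 over the receptor genes and 0.02 over all genes. The interval lay above 0 for 8 genes, and it spanned 0 for PEPR2 and LYK4. The share of all genes with an interval above 0 was not computed, so the count of 8 has no background beside it. LORE, at 0.64, lay just past the 1.5-fold line, and EFR, at 0.50, just short of it.

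**Figure D1:**
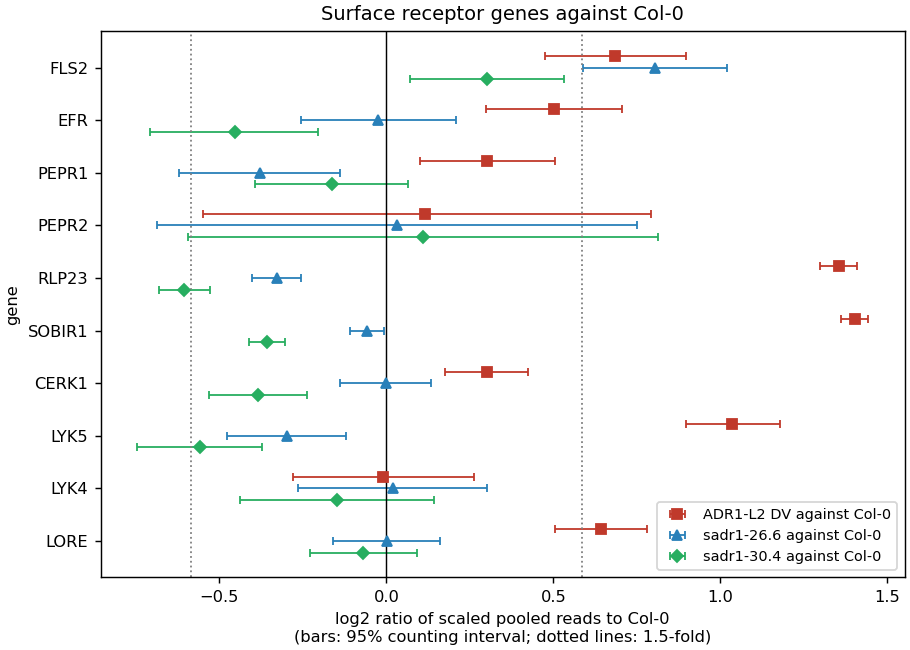
Log2 ratio of scaled pooled reads to Col-0 (horizontal axis) for each receptor gene (vertical axis) in ADR1-L2 DV (squares), sadr1-26.6 (triangles) and sadr1-30.4 (diamonds), with bars for the 95% counting interval and dotted lines at 1.5-fold. SOBIR1, RLP23 and LYK5 lie farthest to the right in ADR1-L2 DV, at 1.40, 1.35 and 1.04, and FLS2 is the gene beyond 1.5-fold in sadr1-26.6.

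Receptor-like protein signalling held the most abundant and the most elevated members. RLP23 (AT2G32680) recognizes the peptide nlp20, a conserved stretch of the NLP proteins that bacteria, fungi and oomycetes secrete. It had 3521 pooled reads from Col-0, 10920 from ADR1-L2 DV, 2741 from sadr1-26.6 and 2331 from sadr1-30.4. ADR1-L2 DV thus stood well above the other genotypes, and both suppressors lay under Col-0. The log2 ratio to Col-0 was 1.35 in ADR1-L2 DV, a 2.56-fold higher level with an interval of 2.46 to 2.66 on the fold scale. It was -0.33 (-0.40 to -0.26) in sadr1-26.6 and -0.61 (-0.68 to -0.53) in sadr1-30.4. RLP23 was the only receptor gene called lower than Col-0 in a suppressor.

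SOBIR1 (AT2G31880), the adaptor kinase that RLP23 and other receptor-like proteins need to signal, had 6543 pooled reads from Col-0, 20968 from ADR1-L2 DV, 6144 from sadr1-26.6 and 5141 from sadr1-30.4. Its log2 ratio to Col-0 in ADR1-L2 DV was 1.40 (1.36 to 1.44), or 2.64-fold. Only 3.81% of all genes compared had a larger ratio in that genotype. The ratio was -0.06 (-0.11 to -0.01) in sadr1-26.6 and -0.36 (-0.41 to -0.30) in sadr1-30.4. The receptor and its adaptor were therefore elevated by nearly the same factor, and for both genes sadr1-30.4 was the genotype with the lowest level.

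Among the LysM genes, the chitin receptor LYK5 stood apart from its relatives. LYK5 (AT2G33580), which binds chitin with high affinity, had 585 pooled reads from Col-0, 1455 from ADR1-L2 DV, 465 from sadr1-26.6 and 400 from sadr1-30.4. The log2 ratio to Col-0 was 1.04 (0.90 to 1.18) in ADR1-L2 DV, a 2.05-fold higher level. It was -0.30 (-0.48 to -0.12) in sadr1-26.6 and -0.56 (-0.75 to -0.37) in sadr1-30.4, the latter just short of 1.5-fold and not called. LYK5 followed the order of RLP23 and SOBIR1 over the 4 genotypes, an order that CERK1 and EFR also had in scaled reads.

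CERK1 (AT3G21630) is the co-receptor that joins LYK5 on chitin and carries the active kinase of the complex. Its 885 pooled reads from Col-0 stood beside 1322 from ADR1-L2 DV, 864 from sadr1-26.6 and 683 from sadr1-30.4. The log2 ratio to Col-0 was 0.30 (0.18 to 0.43) for ADR1-L2 DV, -0.00 (-0.14 to 0.13) for sadr1-26.6 and -0.38 (-0.53 to -0.24) for sadr1-30.4. The interval in ADR1-L2 DV lay above 0 and short of 1.5-fold. LYK4 (AT2G23770), a LysM receptor-like kinase that contributes to the chitin response, had 210 pooled reads from Col-0, 253 from ADR1-L2 DV, 208 from sadr1-26.6 and 191 from sadr1-30.4. Its ratio in ADR1-L2 DV was -0.01 (-0.28 to 0.26), and the intervals of all its comparisons spanned 0. For LYK4 in ADR1-L2 DV, the counting interval stayed within 1.5-fold on either side. The intervals of LYK5, CERK1 and LYK4 did not overlap between LYK5 and either of the others in ADR1-L2 DV, whereas those of CERK1 and LYK4 did.

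The receptors for bacterial proteins differed in the suppressors. FLS2 (AT5G46330), the receptor for the flagellin peptide flg22, had 282 pooled reads from Col-0, 550 from ADR1-L2 DV, 481 from sadr1-26.6 and 350 from sadr1-30.4. Col-0 had the lowest scaled level of the 4 genotypes, which among the other members was the case for PEPR2, there by differences within counting error. The log2 ratio to Col-0 was 0.69 (0.48 to 0.90) for ADR1-L2 DV, 0.80 (0.59 to 1.02) for sadr1-26.6 and 0.30 (0.07 to 0.53) for sadr1-30.4. In sadr1-26.6 only 2.22% of all genes compared had a larger ratio to Col-0. Against ADR1-L2 DV the difference was 0.12 (-0.06 to 0.30) in sadr1-26.6, within counting error, and -0.38 (-0.58 to -0.19) in sadr1-30.4. The FLS2 gene model overlaps RWA1, a gene of cell wall acetylation on the opposite strand, by 172 bases. RWA1 had more reads than FLS2, 496 pooled reads from Col-0, 768 from ADR1-L2 DV, 574 from sadr1-26.6 and 493 from sadr1-30.4, with log2 ratios to Col-0 of 0.35 for ADR1-L2 DV, 0.24 for sadr1-26.6 and -0.02 for sadr1-30.4.

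EFR (AT5G20480), the receptor for the elf18 peptide of bacterial elongation factor Tu, had 313 pooled reads from Col-0, 537 from ADR1-L2 DV, 301 from sadr1-26.6 and 230 from sadr1-30.4. The log2 ratio to Col-0 was 0.50 (0.30 to 0.71) for ADR1-L2 DV, -0.02 (-0.26 to 0.21) for sadr1-26.6 and -0.45 (-0.71 to -0.20) for sadr1-30.4. The counting intervals of EFR and FLS2 overlapped in ADR1-L2 DV and were apart in both suppressors. LORE (AT1G61380, SD1-29 in RefSeq), the S-domain kinase that senses bacterial medium-chain hydroxy fatty acids, had 649 pooled reads from Col-0, 1228 from ADR1-L2 DV, 635 from sadr1-26.6 and 623 from sadr1-30.4. Its ratio to Col-0 was 0.64 (0.50 to 0.78) for ADR1-L2 DV, 0.00 (-0.16 to 0.16) for sadr1-26.6 and -0.07 (-0.23 to 0.09) for sadr1-30.4. LORE was elevated in ADR1-L2 DV and within counting error of Col-0 in both suppressors.

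PEPR1 and PEPR2 detect Pep peptides, which plants cut from their own PROPEP precursors upon damage. PEPR1 (AT1G73080) had 335 pooled reads from Col-0, 501 from ADR1-L2 DV, 252 from sadr1-26.6 and 301 from sadr1-30.4. The log2 ratio to Col-0 was 0.30 (0.10 to 0.51) for ADR1-L2 DV, -0.38 (-0.62 to -0.14) for sadr1-26.6 and -0.16 (-0.39 to 0.06) for sadr1-30.4. PEPR2 (AT1G17750) had 35 pooled reads from Col-0, 46 from ADR1-L2 DV, 35 from sadr1-26.6 and 38 from sadr1-30.4. Its ratio in ADR1-L2 DV was 0.12 (-0.55 to 0.79), so a difference of 1.5-fold was not detectable at this depth. Of their 6 precursor genes, PROPEP5 and PROPEP6 reached the minimum. PROPEP5 had 49 pooled reads from Col-0 and 45 from ADR1-L2 DV, PROPEP6 37 and 32, and neither passed 1.5-fold between these genotypes.

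Per length, the receptor genes spanned a wide range of levels. SOBIR1 came first in Col-0 with 3274 scaled reads per kb of exon, followed by RLP23 with 1290, CERK1 with 423, LYK5 with 220 and LORE with 203. PEPR1 followed with 91.3, LYK4 with 87.4, EFR with 75.8, FLS2 with 69.2 and PEPR2 with 9.83. In ADR1-L2 DV, SOBIR1 reached 8652 and RLP23 3299 scaled reads per kb, and LYK5, at 451, came close to its co-receptor CERK1 at 521. FLS2, at 111, stood beside EFR at 107 and PEPR1 at 113 in that genotype. In sadr1-30.4, FLS2 was at 85.3 scaled reads per kb and EFR at 55.3.

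**Figure D2:**
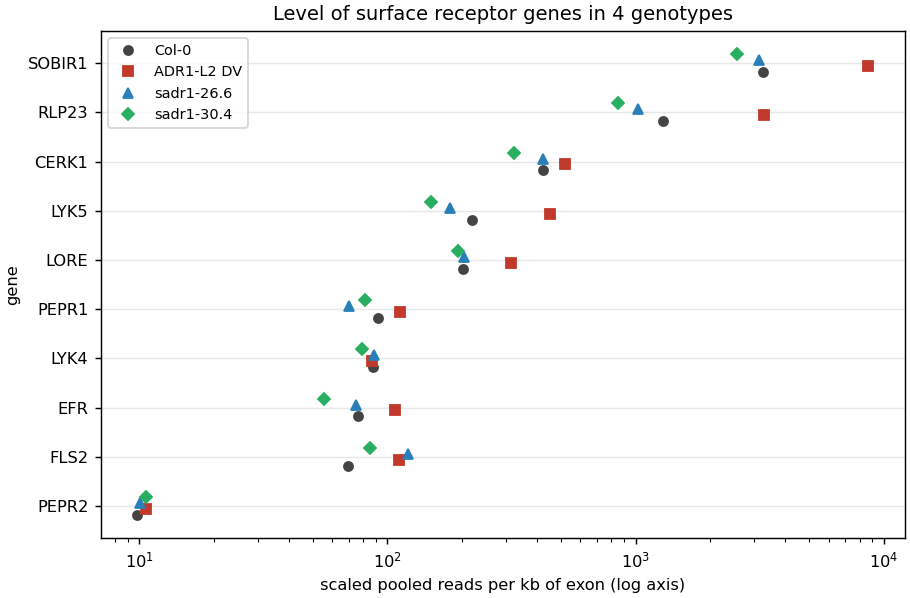
Scaled pooled reads per kb of exon (horizontal log axis) for each receptor gene (vertical axis, ordered by the level in Col-0), with 1 point per genotype and no error bars. The square of ADR1-L2 DV lies to the right of the other genotypes for SOBIR1, RLP23, CERK1, LYK5, LORE, PEPR1 and EFR, while the points of LYK4 and PEPR2 lie together and sadr1-26.6 is rightmost for FLS2.

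Reads could be shared with other genes at some members, since the strand setting of the counting is not given in the sources used here. In the RefSeq annotation, SOBIR1 overlaps RAP by 478 bases, RLP23 overlaps VAMP725 by 6, PEPR2 overlaps CSTF77 by 14, and SOBIR1, PEPR2 and EFR overlap non-coding RNAs. RAP had 478 pooled reads from Col-0 and 530 from ADR1-L2 DV, far fewer than SOBIR1. VAMP725 had 12 pooled reads in both, so its reads were few beside those of RLP23. CSTF77 had 384 pooled reads from Col-0, 525 from ADR1-L2 DV, 380 from sadr1-26.6 and 393 from sadr1-30.4, more than PEPR2 in each. Only EFR had a stretch of at least 100 bases with 90% identity or more elsewhere in the genome, 106 bases at 97.2%. Longer but less alike stretches were found for LORE, 1563 bases at 83.4% in AT1G61390, and for PEPR1, 1710 bases at 83.2%.

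Since several of these genes stood higher together in ADR1-L2 DV, the 250 bases before the annotated transcript start were read for 9 of them, all but SOBIR1, from the RefSeq TAIR10.1 genome. They were searched on both strands for TTGAC, the core of the W-box that WRKY factors bind, which reads GTCAA on the other strand. The core was present in 8 of the 9 windows, and 44.9% of the 27443 protein-coding genes have it in a window of this length. At least 2 cores were present in 3 windows, those of PEPR1, PEPR2 and RLP23, against 14.1% of all protein-coding genes. Of these genes only RLP23 was called higher in ADR1-L2 DV. LYK5, FLS2 and LORE, also called higher, had 1 core each, as did CERK1 and EFR, which were not called. Other annotated genes lie in the windows of PEPR1, LORE, LYK4, CERK1 and EFR. LYK4 had none. A match describes these letters and is not evidence of binding. The windows of LYK5 and FLS2, which were called higher in ADR1-L2 DV, and of PEPR2, which was not, are shown because no other annotated gene lies in them and the gene model has a 5′ untranslated region. The RLP23 window, also free of other genes, is not shown because that gene model has no 5′ untranslated region and its window may hold transcribed bases. Bases run 5′ to 3′ on the strand of the gene, and capitals mark the W-box core.
LYK5 promoter (chr2:14222255-14222504, minus strand): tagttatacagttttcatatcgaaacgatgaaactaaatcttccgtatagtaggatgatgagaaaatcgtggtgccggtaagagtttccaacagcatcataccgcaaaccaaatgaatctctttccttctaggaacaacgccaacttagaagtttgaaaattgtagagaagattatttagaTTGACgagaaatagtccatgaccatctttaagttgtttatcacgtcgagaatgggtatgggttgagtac
FLS2 promoter (chr5:18791325-18791574, plus strand): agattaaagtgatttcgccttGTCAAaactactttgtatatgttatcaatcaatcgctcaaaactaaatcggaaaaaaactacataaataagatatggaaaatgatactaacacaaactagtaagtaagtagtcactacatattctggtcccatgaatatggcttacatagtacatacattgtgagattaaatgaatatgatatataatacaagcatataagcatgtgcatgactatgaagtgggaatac
PEPR2 promoter (chr1:6106073-6106322, plus strand): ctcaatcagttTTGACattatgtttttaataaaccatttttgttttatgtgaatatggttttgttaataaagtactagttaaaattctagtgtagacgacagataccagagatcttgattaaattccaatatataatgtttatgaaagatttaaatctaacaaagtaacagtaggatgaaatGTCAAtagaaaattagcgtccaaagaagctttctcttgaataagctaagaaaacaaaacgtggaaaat

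Against Col-0, 1 of the 10 receptor genes passed 1.5-fold in each suppressor, a share near that of all genes. In sadr1-26.6, FLS2 was higher and 0 of the 10 were lower, while 3.91% of all genes compared were higher and 5.38% lower. In sadr1-30.4, 0 were higher and RLP23 was lower, while 2.52% of all genes were higher and 4.66% lower. The median log2 ratio of the receptor genes was -0.01 in sadr1-26.6 and -0.26 in sadr1-30.4, beside -0.02 and 0.01 over all genes. In sadr1-26.6 the interval lay under 0 for RLP23, SOBIR1, LYK5 and PEPR1 and above 0 for FLS2. In sadr1-30.4 it lay under 0 for RLP23, SOBIR1, CERK1, LYK5 and EFR and above 0 for FLS2. The share of all genes with such intervals was not computed. All these comparisons share the pooled Col-0 reads, so an unusual Col-0 value would enter each of them.

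**Figure D3:**
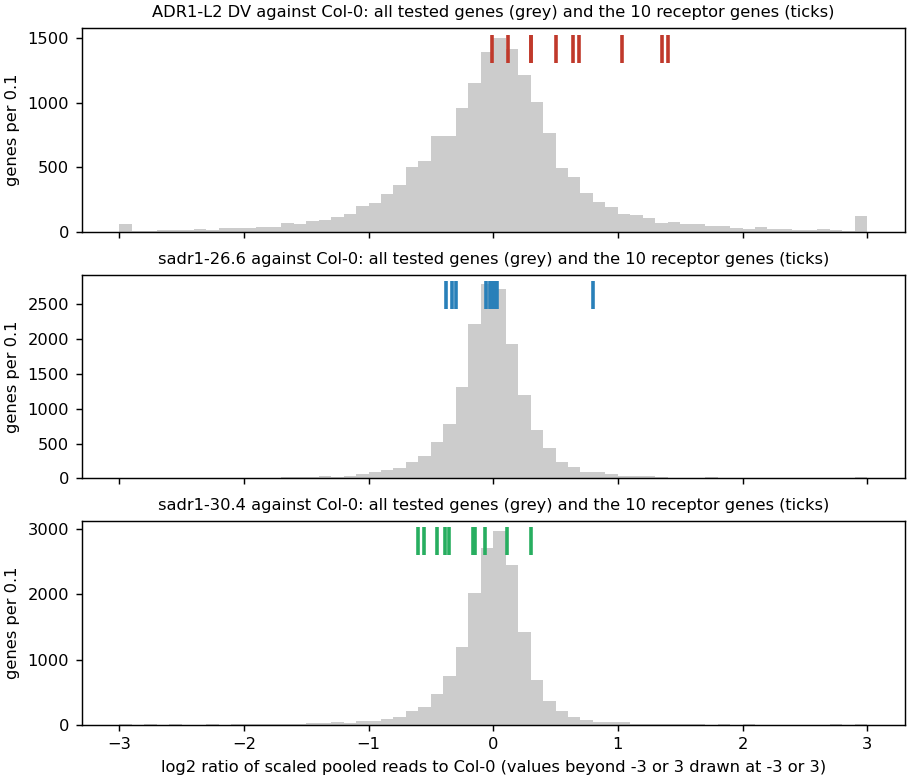
Histograms of the log2 ratio to Col-0 (horizontal axis) over the 16660 genes compared, with the number of genes in each bin on the vertical axis, for ADR1-L2 DV, sadr1-26.6 and sadr1-30.4 from top to bottom. Ticks mark the 10 receptor genes, which reach from -0.01 to 1.40 in ADR1-L2 DV, from -0.38 to 0.80 in sadr1-26.6 and from -0.61 to 0.30 in sadr1-30.4.

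Compared with ADR1-L2 DV, 5 receptor genes were lower in sadr1-26.6 by 1.5-fold or more, namely RLP23, SOBIR1, LYK5, PEPR1 and LORE, and 0 were higher. Over all genes compared, 15.2% were lower and 14.7% higher. RLP23 was 3.21-fold lower, SOBIR1 2.75-fold and LYK5 2.52-fold. In sadr1-30.4, 6 were lower than in ADR1-L2 DV and 0 higher, beside 17.6% and 17.9% of all genes. These were RLP23 at 3.89-fold lower, SOBIR1 at 3.39-fold, LYK5 at 3.02-fold and EFR at 1.94-fold, with LORE and CERK1. With scaling by total reads the shares of all genes were 24.8% lower and 9.36% higher in sadr1-26.6, and 26.5% lower and 11.6% higher in sadr1-30.4, with 6 and 8 receptor genes lower. LYK4 and PEPR2 had intervals that spanned 0 against ADR1-L2 DV in both suppressors.

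Between the suppressors, 0 of the 10 receptor genes passed 1.5-fold, while 4.44% of all genes were higher and 4.26% lower in sadr1-30.4 than in sadr1-26.6. The median log2 difference was -0.27 over the receptor genes and -0.00 over all genes. The counting interval lay under 0 for 6 of the receptor genes, and the share of all genes with such an interval was not computed. FLS2 differed most, at -0.50 (-0.70 to -0.30), followed by EFR at -0.43 (-0.68 to -0.18) and CERK1 at -0.38 (-0.53 to -0.24). PEPR1 was the member with the largest positive difference, 0.21 (-0.03 to 0.46), which spanned 0.

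Among other surface immune receptors, 14 of 15 listed genes met the read minimum, and in ADR1-L2 DV 6 were higher and 3 lower than in Col-0, with a median log2 ratio of 0.34, beside 13.8% and 15.3% of all genes and a median of 0.02. The largest ratios were those of RLP39 at 1.55, MIK2 at 1.34, IOS1 at 1.23 and RLP1 at 1.06. The 3 lower genes, named after their values were seen, were the LysM genes LYM1 at -1.01 and LYK3 at -0.597, and P2K1, the receptor for extracellular ATP, at -0.85. MIK2, a receptor kinase for SCOOP peptides, had 3930 pooled reads from Col-0, 12031 from ADR1-L2 DV, 3750 from sadr1-26.6 and 3315 from sadr1-30.4, the same order of genotypes as SOBIR1. IOS1, a malectin-domain kinase that associates with FLS2 and EFR, was at 0.08 in sadr1-26.6 and -0.82 in sadr1-30.4. Relative to Col-0, 0 of the 14 were higher in either suppressor, 1 was lower in sadr1-26.6 and 4 in sadr1-30.4, beside 5.38% and 4.66% of all genes.

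Of 11 co-receptors and receptor regulators, 4 were higher and 1 lower in ADR1-L2 DV, with a median of 0.48, beside 13.8% and 15.3% of all genes and a median of 0.02. BAK1, the shared co-receptor of FLS2, EFR and the PEPRs, had 997 pooled reads from Col-0, 1691 from ADR1-L2 DV, 902 from sadr1-26.6 and 801 from sadr1-30.4. Its log2 ratio in ADR1-L2 DV was 0.48 (0.37 to 0.60), close to that of EFR. BIR1, a BAK1-interacting kinase that restrains cell death, was at 0.99, SERK5 at 0.87 and BIR2, which keeps BAK1 from its receptors, at 0.70. SERK1, a BAK1 relative, was at -0.97 on 47 pooled reads from Col-0 and 29 from ADR1-L2 DV.

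Among 15 genes of receptor-proximal signalling, 6 were higher and 0 lower in ADR1-L2 DV, with a median of 0.51, beside 13.8% and 15.3% of all genes. All 15 lay above 0 there, from 0.302 to 1.17, as did 51.9% of all genes. BIK1, the cytoplasmic kinase that FLS2 and EFR release, had 252 pooled reads from Col-0, 686 from ADR1-L2 DV, 190 from sadr1-26.6 and 179 from sadr1-30.4, with a log2 ratio of 1.17 in ADR1-L2 DV. PBL20 was at 0.87, PBL30 at 0.82 and XLG2, an extra-large G protein of the FLS2 complex, at 0.70. PBL20 also had the lowest ratios of the list in the suppressors, on 41 pooled reads in Col-0, 10 in sadr1-26.6 and 4 in sadr1-30.4. Against ADR1-L2 DV, 10 of the 15 were lower in each suppressor, beside 15.2% of all genes in sadr1-26.6 and 17.6% in sadr1-30.4.

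Of 12 genes that serve as markers of pattern-triggered signalling, 11 met the minimum, of which 6 were higher and 0 lower in ADR1-L2 DV, with a median of 0.67, beside 13.8% and 15.3% of all genes. FRK1, a kinase gene that flg22 induces, had 230 pooled reads from Col-0, 861 from ADR1-L2 DV, 285 from sadr1-26.6 and 191 from sadr1-30.4. The log2 ratio in ADR1-L2 DV was 1.63 for FRK1, 1.65 for the transcription factor gene WRKY53, 1.06 for MYB51, a regulator of indole glucosinolates, and 3.58 for PHI-1. PHI-1 rested on 8 pooled reads from Col-0 and 116 from ADR1-L2 DV. NHL10 at -0.56 (-0.96 to -0.16), PER4 at -0.40 and PER62 at -0.39 went the other way in ADR1-L2 DV. The intervals of PER4 and PER62 spanned 0. In sadr1-26.6, 1 of the markers was higher and 4 lower than in Col-0, beside 3.91% and 5.38% of all genes. In sadr1-30.4, 1 was higher and 3 lower, beside 2.52% and 4.66%.

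Of 6 genes for folding receptors in the endoplasmic reticulum, 1 was higher and 0 lower in ADR1-L2 DV, a share near the 13.8% of all genes. CRT3, a calreticulin needed for EFR, was the higher one with a log2 ratio of 0.91, and the other 5 lay between -0.03 and 0.05. SDF2 and ERDJ3B, partners in a chaperone complex needed for EFR, were the 2 of 6 called lower than Col-0 in each suppressor, beside 5.38% of all genes in sadr1-26.6 and 4.66% in sadr1-30.4. SDF2 was at -0.83 in sadr1-26.6 and -0.77 in sadr1-30.4, and ERDJ3B at -0.99 and -1.06. STT3A, a subunit of the oligosaccharyltransferase that glycosylates EFR, was at 0.05 for ADR1-L2 DV, -0.32 for sadr1-26.6 and -0.34 for sadr1-30.4.

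**Figure D4:**
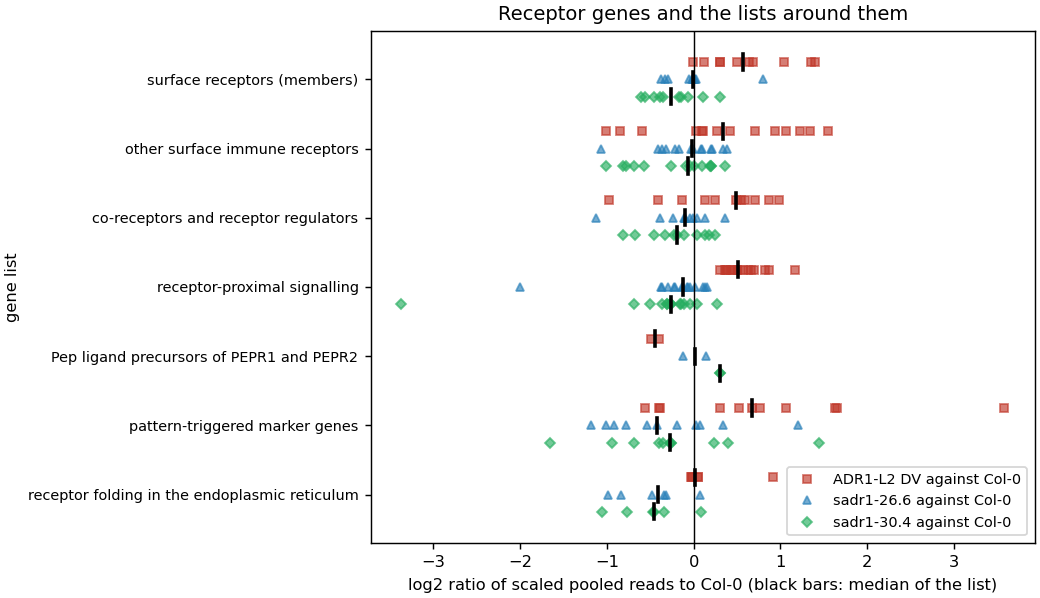
Log2 ratio to Col-0 (horizontal axis) for the receptor genes and for the genes of each list around them (vertical axis), with 1 symbol per gene, squares for ADR1-L2 DV, triangles for sadr1-26.6, diamonds for sadr1-30.4 and black bars for the median of each list. In ADR1-L2 DV the medians were 0.57 for the receptor genes, 0.51 for proximal signalling and 0.01 for the folding genes.

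The genes whose 3 ratios to Col-0 lay nearest to the median ratios of the receptor genes were XGD1, AT3G17410, ITN1, AT2G04690 and AT2G40270. Their Euclidean distances on the log2 scale were between 0.025 and 0.045, out of 9990 genes with at least 200 pooled reads in every genotype. AT3G17410, for example, was at 0.60 for ADR1-L2 DV, -0.01 for sadr1-26.6 and -0.27 for sadr1-30.4. Among the receptor genes themselves, LORE and EFR lay nearest to that median, at 0.21 each, and FLS2 farthest, at 0.998. Of the 9990 genes, 278 lay nearer to it than LORE and 282 nearer than EFR. For CERK1, 692 genes lay nearer, for PEPR1 2106, and for PEPR2, LYK4 and LYK5 between 3542 and 3944. For SOBIR1, RLP23 and FLS2, 6269, 6855 and 7419 genes lay nearer, so the members lay at widely different distances from their median.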

How the data were processed

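Leaf RNA of 12 samples was sequenced from mRNA libraries, and samples were grouped by title. The authors deposited 1 value per gene and genotype for 28496 genes. The columns are headed RPKM but hold whole numbers, and value times gene length summed to between 55751903 and 62665022 per genotype, more than RPKM values can reach, so they were read as pooled counts. The submitters' processing notes name the build TAIR10, and the aligner, counter and strand setting were not stated in labels or methods. The authors also deposited 6 columns with log2 fold changes and FDR values of their own comparisons, which were not used. No count model was fitted, since no counts per sample were analysed.

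Counts were scaled by the median of ratios (factors 0.959 for Col-0, 1.16 for ADR1-L2 DV, 0.938 for sadr1-26.6 and 0.966 for sadr1-30.4), over genes with at least 200 pooled reads in every genotype. Genes with at least 100 pooled reads in all were compared, using Python 3.11.15, pandas 2.3.3, NumPy 2.4.6 and SciPy 1.17.1. The code for the scaling and the intervals was run on simulated reads with counting error only and few changed genes. That run could not show how either behaves with variation between plants or with many changed genes, as in ADR1-L2 DV. Gene models, exon lengths and sequences came from RefSeq TAIR10.1, in which 28009 AGI codes matched. Alternatives were scaling by totals or the upper quartile, a pseudocount of 5, no minimum and a 2-fold threshold.

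The members and the lists were chosen with earlier results of these data known. Text names all members, BAK1, BIK1, ADR1-L2, the 5 nearest patterns and up to 4 genes per list with the largest absolute ratio of ADR1-L2 DV to Col-0. Other genes were named after their values were seen. A list entry intended as RLP42 carried the AGI code of RLP39 and is given as RLP39. The promoter of SOBIR1 is not reported here.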

Additional observations from a re-analysis of the deposited data

How the results depend on the processing

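Under a 2-fold threshold, 3 receptor genes were higher in ADR1-L2 DV than in Col-0, 0 passed in sadr1-26.6 and 0 in sadr1-30.4, and against ADR1-L2 DV 3 were lower in sadr1-26.6 and 3 in sadr1-30.4. At that threshold 6.51% of all genes were higher in ADR1-L2 DV, and 7.14% and 9.03% were lower than in ADR1-L2 DV in the suppressors. Against Col-0, 1.31% of all genes were higher and 1.61% lower in sadr1-26.6, and 0.78% higher and 1.62% lower in sadr1-30.4. With 10 members, the counts of 0 there lie near those shares. With scaling by total reads, the median log2 ratio of all genes in ADR1-L2 DV was 0.22 in place of 0.02, and 21.7% of genes were higher and 9.96% lower in place of 13.8% and 15.3%. The receptor genes past 1.5-fold then numbered 6 in ADR1-L2 DV, and 19 of 60 member ratios left their counting interval, against 3 of 60 with the upper quartile and 0 of 60 with a pseudocount of 5 or no minimum. All 19 were ratios with ADR1-L2 DV on 1 side. In ADR1-L2 DV against Col-0, RLP23 went from 1.35 to 1.55 and SOBIR1 from 1.40 to 1.60. LYK5 went from 1.04 to 1.24 and LORE from 0.64 to 0.84. The choice of scaling thus moved these ratios by more than their counting error. FLS2 in sadr1-26.6 against ADR1-L2 DV went from 0.12 to -0.11 with totals. No paired analysis was possible because the values analysed here are pooled over the samples of a genotype, and leaving out single samples was not run for the same reason. Depth limits PEPR2, with 35 to 46 pooled reads.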

Other observations

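Receptor-like proteins beyond RLP23 were also mostly higher in ADR1-L2 DV, a family that was looked at after values were seen. By RefSeq symbol the family has 51 other genes in the table, of which 41 met the read minimum. In ADR1-L2 DV 24 of these were higher and 2 lower than in Col-0 by 1.5-fold or more, with a median log2 ratio of 0.70, beside 13.8% and 15.3% of all genes. RLP20 had 36 pooled reads from Col-0, 465 from ADR1-L2 DV, 34 from sadr1-26.6 and 29 from sadr1-30.4. RLP34, the most abundant of those listed here, had 5382, 14788, 5354 and 4542 in the same order, and RLP41 had 2375, 6933, 1756 and 1961. The 2 lower genes were RLP33 at -0.996 and RLP45 at -0.62. Many of these genes stand in tandem copies, between which reads can be shared.

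Of these 41 genes, 4 were higher and 3 lower than Col-0 in sadr1-26.6, beside 3.91% and 5.38% of all genes. In sadr1-30.4, 1 was higher and 4 lower, beside 2.52% and 4.66%. The family medians were -0.02 and -0.10. Against ADR1-L2 DV, 25 were lower and 2 higher in sadr1-26.6, beside 15.2% and 14.7% of all genes. In sadr1-30.4, 29 were lower and 2 higher, beside 17.6% and 17.9%. The genes that follow were picked after their values were seen. RLP24 was at 2.79 for ADR1-L2 DV, 2.24 for sadr1-26.6 and 1.57 for sadr1-30.4, on 8 pooled reads in Col-0. RLP43 was at 2.09, 0.59 and 0.57, the last just short of 1.5-fold, on 351 pooled reads in Col-0. RLP11 was at -0.53 for ADR1-L2 DV, -2.16 for sadr1-26.6 and -2.65 for sadr1-30.4, with 174 pooled reads in Col-0 and 38 and 28 in the suppressors. RLP30, a receptor-like protein that acts with SOBIR1, was at 0.42, -1.06 and -1.01.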
